A study of Homo sapiens with 15 samples.

Results

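The genes described here encode secreted signals of inflammation: the chemokines CXCL1, CXCL2, CXCL3, CXCL8 and CCL5, and the cytokines IL6, IL11, LIF, IL1B and CSF2. They were taken as a list of 10 symbols, and 9 of the 10 were matched to a row of the count table, which held 18858 genes. CCL5 was not analysed here. The question was how the RNA of these signals differed when YAP and TAZ, the co-activators that the Hippo pathway restrains, were knocked down, singly and together.

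RNA came from MDA-MB-231, an established line of human breast adenocarcinoma cells. The cells were left untransfected (Control) or received a pool of siRNAs, which was non-targeting (siControl), against YAP1 (siYAP), against the TAZ gene WWTR1 (siTAZ), or both targeting pools together (siYAP+TAZ). With 30 nM of every pool, the co-knockdown also received more siRNA in all. The larger amount cannot be told apart from the knockdown of both genes. After 48 h the cells of all 5 groups spent 5 to 6 h on gelatin, and polyadenylated RNA was sequenced from 3 libraries per group. The libraries were numbered so that 16 to 20, 21 to 25 and 26 to 30 each held 1 library of every group, and these 3 stretches of numbers are called runs here. The labels do not say what a run stands for. The 15 libraries held 18696737 to 30107312 counts on genes. At that depth, the members' lowest counts in any library ranged from 7 (IL1B) to 2252 (LIF).

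CXCL1, CXCL2, CXCL3 and CXCL8 are small chemokines that draw neutrophils through the receptors CXCR1 and CXCR2. IL6, IL11 and LIF belong to the family of cytokines that signal through the shared receptor chain gp130 (IL6ST), the kinase JAK1 and the transcription factor STAT3. IL1B is made as a precursor that caspase-1 cleaves, and CSF2 (GM-CSF) promotes the growth and activity of myeloid cells. Transcription of many of these genes is known to be raised by NF-kappaB and AP-1, and their mRNAs are held short-lived by proteins such as tristetraprolin (ZFP36) that bind AU-rich elements. Cells of this line are widely known to secrete IL6, CXCL8 and CSF2.

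The promoters of CXCL1, CXCL2, CXCL3, CXCL8, IL6 and IL11 are shown first. These 6 members were lower in 1 stretch of library numbers in every group. No motif marked below was found in all 6 promoters, and the part of these sequences in that difference was not tested. Of the 9 members, 8 had a promoter in the RefSeq table (GRCh38.p14), and the stretch from 150 bases before to 50 bases after the start of transcription given there was read for each. In GRCh38 with the GENCODE 44 annotation, whose gene bounds can begin elsewhere than the RefSeq start, the 4 CXC genes lie together on chromosome 4, from CXCL8 (start 73740519) and CXCL1 (73869393) to CXCL3 (74036589) and CXCL2 (74097040). IL6 lies on chromosome 7 (22725884 to 22732002), IL11 on chromosome 19 (55364382 to 55370463), LIF on chromosome 22 (30240453 to 30246759), IL1B on chromosome 2 (112829751 to 112836816) and CSF2 on chromosome 5 (132073789 to 132076170). The promoters printed are those of CXCL1 (chr4:73869243-73869442, plus strand), CXCL2 (chr4:74099146-74099345, minus strand), CXCL3 (chr4:74038640-74038839, minus strand), CXCL8 (chr4:73740419-73740618, plus strand), IL6 (chr7:22727050-22727249, plus strand) and IL11 (chr19:55370414-55370613, minus strand). Each runs 5′ to 3′ on the strand of its gene, and capitals mark matches to the kappaB-like motif GGANTTTCC or to the AP-1 motif TGANTCA.
CXCL1: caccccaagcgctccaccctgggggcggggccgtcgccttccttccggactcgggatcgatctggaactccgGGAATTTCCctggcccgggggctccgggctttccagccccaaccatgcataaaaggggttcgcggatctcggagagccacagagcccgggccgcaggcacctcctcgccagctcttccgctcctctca
CXCL2: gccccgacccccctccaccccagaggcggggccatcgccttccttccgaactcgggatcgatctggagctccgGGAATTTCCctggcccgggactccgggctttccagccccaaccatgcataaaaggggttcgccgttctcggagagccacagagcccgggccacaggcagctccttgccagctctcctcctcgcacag
CXCL3: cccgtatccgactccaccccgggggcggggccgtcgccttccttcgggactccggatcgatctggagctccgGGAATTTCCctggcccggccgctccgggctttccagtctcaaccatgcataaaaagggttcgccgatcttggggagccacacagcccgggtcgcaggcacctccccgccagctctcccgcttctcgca
CXCL8: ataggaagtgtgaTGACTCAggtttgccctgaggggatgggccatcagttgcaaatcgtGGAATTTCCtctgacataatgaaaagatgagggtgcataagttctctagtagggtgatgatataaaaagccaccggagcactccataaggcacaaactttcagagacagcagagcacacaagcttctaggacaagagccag
IL6: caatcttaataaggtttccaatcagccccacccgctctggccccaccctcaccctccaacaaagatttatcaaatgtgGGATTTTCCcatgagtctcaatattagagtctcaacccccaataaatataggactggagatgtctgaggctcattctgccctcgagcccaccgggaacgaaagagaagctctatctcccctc
IL11: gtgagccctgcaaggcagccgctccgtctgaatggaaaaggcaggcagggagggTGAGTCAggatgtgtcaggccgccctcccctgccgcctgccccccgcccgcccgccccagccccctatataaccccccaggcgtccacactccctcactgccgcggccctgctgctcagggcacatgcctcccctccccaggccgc

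The kappaB-like motif, searched on both strands, was found in 5 of the 8 promoters, against 399 of all 35116 promoters of the same length (1.14%). It began 78 bases before the start of CXCL1 and CXCL3, 77 before CXCL2, 91 before CXCL8 and 72 before IL6. The 4 CXC promoters held the same letters, GGAATTTCC, and IL6 held GGATTTTCC. The AP-1 motif was found in CXCL8, 137 bases upstream, and in IL11, 96 bases upstream, against 5.33% of all promoters, and overlapped no kappaB-like match. The promoters of IL1B and CSF2, not printed, held neither motif. The motif GGAATG, which TEAD factors, the partners of YAP and TAZ on DNA, are known to bind, matched none of the 8 and 9.38% of all promoters. The motifs were chosen with the sequences in view, so these shares cannot test for enrichment. A match describes letters, not binding. The promoters of CXCL1, CXCL2 and CXCL3 were close copies of each other, with 83.5% to 88.1% of aligned bases identical.

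Expression of the members was compared between genes as CPM per kilobase of exonic length (GENCODE 44), where CPM is the count scaled to library size. IL11 was highest, with a median over the 15 libraries of 44.5 (range 17.9 to 65.1), followed by LIF at 30.4 (27.0 to 34.6), CSF2 at 28.5 (18.8 to 35.5) and CXCL8 at 18.1 (4.96 to 24.2). CXCL2 followed at 2.76 (1.21 to 4.32), CXCL1 at 2.09 (0.861 to 4.06), IL6 at 0.885 (0.312 to 1.58), CXCL3 at 0.705 (0.326 to 1.14) and IL1B at 0.203 (0.106 to 0.387). Among neighbours in this order, only the ranges of CXCL8 and CXCL2 did not overlap. The order depends on the exonic length, which joins the exons of all annotated transcripts. In counts scaled to a common library size but not divided by length, the median of IL6 (90.4) was near that of CXCL2 (91.4). It exceeded that of CXCL1 (67.4). In libraries 26 to 30 the top of the order differed, and LIF exceeded IL11 in 4 of 5 libraries, as did CSF2. The transcripts of CXCL1, CXCL2 and CXCL3 share sequence with each other over 4.57%, 13.4% and 6.01% of their 50-base stretches, so a few of their reads may have been split between them. The sources used here do not give whether strand was used in counting. Genes on the opposite strand cover 9.91% of the exonic bases of IL6 and 4.37% of those of LIF.

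The RNA of the siRNA targets was examined in each library, in normalized counts (counts scaled to a common library size). YAP1 had 4431, 4333 and 4202 in the siControl libraries, against 1013, 2764 and 761 with siYAP and 2240.2, 2202 and 1796 in siYAP+TAZ. WWTR1 had 1995, 1850.2 and 1579 in siControl, 828, 254 and 521 in siTAZ and 1133, 1123 and 1284 in siYAP+TAZ. Both genes were therefore lower in every library whose pool targeted them than in any siControl library. In the co-knockdown the log2 fold changes were -1.06 for YAP1 (SE 0.37, edgeR adjusted p = 0.0723) and -0.62 for WWTR1 (SE 0.30, edgeR adjusted p = 0.199). WWTR1 was higher in every siYAP+TAZ library than in any siTAZ library (log2 difference 1.13, SE 0.31, edgeR adjusted p = 0.0648). YAP1 was higher in siYAP+TAZ than in siYAP by 0.45 (SE 0.37, edgeR adjusted p = 0.566), and these groups overlapped. Among markers fixed for the line, VIM, CD44, KRT18, EGFR and ZEB1 had medians between 1874 and 29214 normalized counts. PGR, expected to be low, had at most 8.32, whereas ERBB2 and GATA3 had medians of 2436 and 501.

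Libraries 26 to 30 stood apart from the others for the chemokines, IL6 and IL11, in all 5 groups alike, and for these 6 genes the difference was larger in size than any fitted difference of a knockdown from siControl. CXCL8 had 942 to 1481 normalized counts (median 1345) in libraries 16 to 20, 602 to 1299 (median 1187) in libraries 21 to 25 and 304 to 424 (median 359) in libraries 26 to 30. IL11 had 2817 to 4119 (median 3035), 2589 to 3659 (median 2842) and 1131 to 1959 (median 1332) in the same order. IL6 had 89.9 to 161 (median 118), 83.9 to 139 (median 116) and 31.8 to 74.3 (median 47.6). For each of these 3 genes every library of the last run lay below every library of the other runs, and the lowest CXCL8 value among the other runs was that of siTAZ library 24.

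The other CXC chemokines followed the same pattern at lower levels. CXCL1 had 67.4 to 131 (median 78.9), 60.4 to 94.4 (median 71.5) and 27.7 to 46.1 (median 41.1) in the 3 runs, and CXCL2 had 109.9 to 143 (median 129.6), 63.3 to 121 (median 91.4) and 40.1 to 59.1 (median 48.3). CXCL3 had 37.0 to 59.8 (median 44.8), 29.6 to 47.3 (median 38.7) and 17.1 to 29.8 (median 19.3), so its last run overlapped the others slightly. In all, the last run did not overlap the other 2 for 5 of the 9 members, against 2.96% of all genes.

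LIF and CSF2 did not share this drop. LIF had 2660.5 to 3163 in libraries 16 to 20, 2471 to 3119.7 in libraries 21 to 25 and 2740.1 to 3144 in libraries 26 to 30, the narrowest spread of the members, with a ratio of highest to lowest of 1.28 against 3.50 to 5.06 for the CXC chemokines, IL6 and IL11. CSF2 had 350.1 to 566, 365 to 534 and 411 to 662, with medians of 530.5, 387 and 576. In siControl its last library (561) lay below that of the first run (566). IL1B had 11.5 to 27.6, 9.33 to 27.0 and 7.51 to 15.6.

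**Figure D1:**
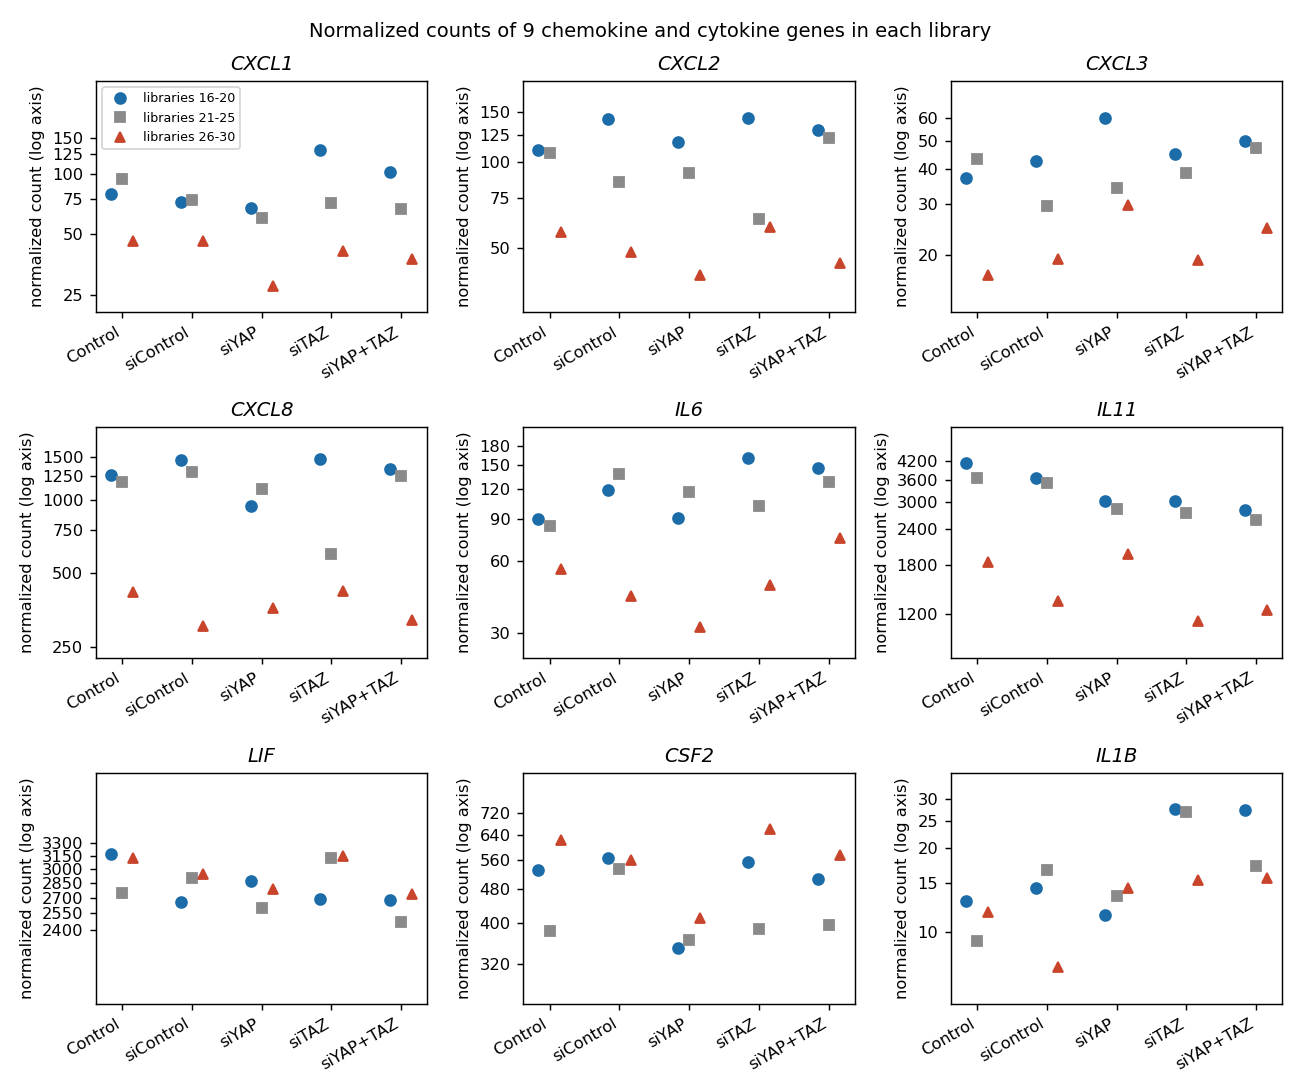
Normalized counts (vertical axes, logarithmic) of the 9 members in each of the 15 libraries, by group (horizontal axes) and run of library numbers (marker). For CXCL1, CXCL2, CXCL8, IL6 and IL11 the triangles of libraries 26 to 30 lie below all other points, whereas those of LIF and CSF2 do not.

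A fit with group and run as terms, tested for both run terms together, called 7 of the 9 members at an adjusted p of at most 0.05, against 21.3% of all genes. CXCL8 was lower in libraries 26 to 30 than in the other runs by a log2 difference of -1.70 (SE 0.22, edgeR adjusted p = 0.00173). IL6 differed by -1.23 (SE 0.15, edgeR adjusted p = 6.96e-06) and IL11 by -1.10 (SE 0.10, edgeR adjusted p = 0.000166). CXCL2 differed by -1.17 (SE 0.14), CXCL1 by -1.03 (SE 0.15) and CXCL3 by -0.93 (SE 0.18), with edgeR adjusted p-values of 5.84e-07, 1.55e-05 and 0.000375. CSF2 was the called member that was higher in the last run, by 0.31 (SE 0.072), and libraries 21 to 25 were lower than libraries 16 to 20 by -0.26 (SE 0.084, joint edgeR adjusted p = 0.00146). IL1B (-0.42, SE 0.24, edgeR adjusted p = 0.390) and LIF (0.079, SE 0.045, edgeR adjusted p = 0.409) did not pass. The contrast of the last run with the others was chosen after the values were seen, and its sizes are descriptive. Over all genes its median was -0.012.

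**Figure D2:**
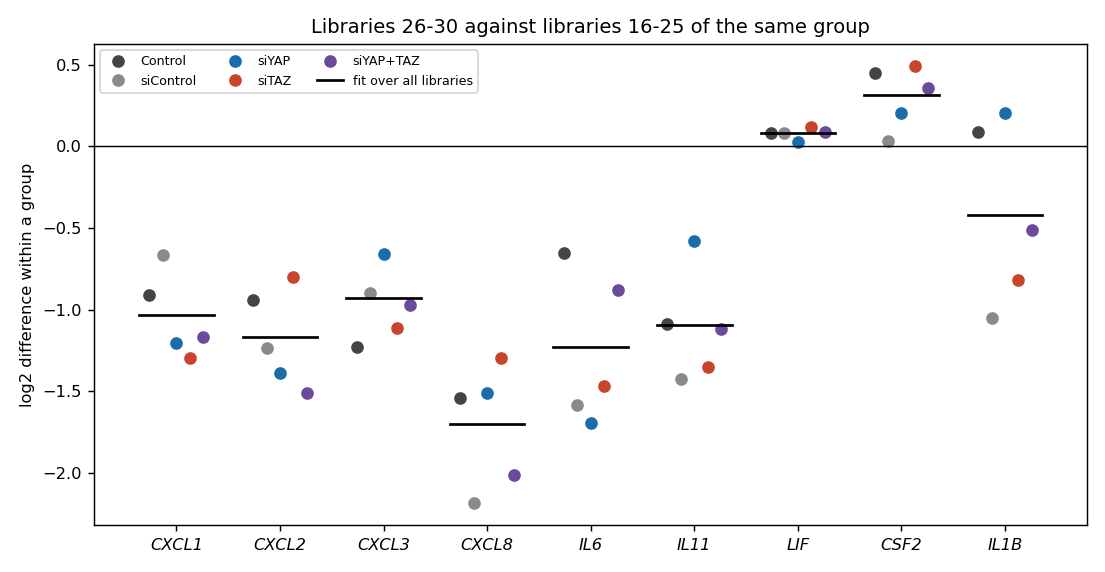
Log2 difference between the library of run 26 to 30 and the mean of the other 2 libraries of the same group (vertical axis), for each member (horizontal axis) and group (colour), with the value fitted over all libraries as a bar. All 5 groups lie below 0 for the CXC chemokines, IL6 and IL11, and above 0 for LIF and CSF2.

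Each group showed the drop on its own: the library of the last run lay below both other libraries of its group in 5 of 5 groups for the 4 CXC chemokines, IL6 and IL11. Within groups the log2 difference ranged from -2.19 to -1.30 for CXCL8, from -1.70 to -0.65 for IL6 and from -1.42 to -0.58 for IL11. Among the 13210 genes that averaged 20 or more normalized counts, 0.0454% had a lower log2 difference than CXCL8. Those figures were 0.288% for IL6, 0.462% for IL11, 94.0% for CSF2 and 66.7% for LIF.

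The part that depth and RNA make-up of the libraries had in the difference was not tested. Libraries 26 to 30 held 18696737 to 25583102 counts, against 19445379 to 30107312 and 20147681 to 29207615 in the other runs. Mitochondrial genes took 2.52% to 5.03% of their counts, against 1.90% to 3.92% and 1.78% to 4.19%. Of the 5 markers present in the line, 4 also passed the test of the runs, VIM (-0.21), EGFR (-0.16) and KRT18 (-0.14) with lower and CD44 (0.16) with higher log2 levels in libraries 26 to 30 than in the others. The number of genes with a read was 18220 to 18521, against 18535 to 18719 and 18288 to 18682.

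Over the 15 libraries, log2 levels of the 4 CXC chemokines, IL6 and IL11 rose and fell together, with Pearson's r between 0.68 and 0.95 over their 15 pairs (median 0.79). Between these 6 genes and LIF, CSF2 or IL1B, r ranged from -0.63 to 0.57 over 18 pairs. The points share their library and their run, and the values are a description. Among 10639 other genes that averaged 100 or more normalized counts, the patterns most like that of CXCL8 were those of TM4SF1 (r = 0.97), TPPP (0.97) and HES4 (0.97) over the 15 libraries. Those most like IL11 were ZXDB (0.95), IL18 (0.94) and ZNF557 (0.93). Lower values were reached for LIF, by ZNRF3 (0.81), CLN6 (0.80) and EIF1AD (0.79), and for CSF2, by FOXK2 (0.79), MED13 (0.78) and MSL1 (0.77).

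Some genes of pathways around the members also differed among the runs, and are named here after their values were seen. Of the 18 genes of NF-kappaB signalling, 7 passed in the test of the runs, where 21.3% of all genes did, and 4 of them were higher and 3 lower in libraries 26 to 30. The 3 lower ones were NFKBIZ, a nuclear I-kappaB protein that takes part in IL6 transcription (log2 difference -0.69, SE 0.088, edgeR adjusted p = 8.44e-06), and the inhibitors NFKBIA (-0.28, SE 0.048, edgeR adjusted p = 0.000203) and TNFAIP3 (-0.18, SE 0.059, edgeR adjusted p = 0.0409). NFKBIZ had 381 to 572, 292 to 483 and 234 to 289 normalized counts in the 3 runs. RELA (0.16), RELB (0.23), NFKBIE (0.29) and TRAF1 (0.45) were the 4 higher ones. Of 9 genes of gp130, JAK and STAT3 signalling, 1 was higher and 2, STAT3 (-0.14) and SOCS3, were lower. SOCS3, the feedback inhibitor that STAT3 induces, differed by -0.50 (SE 0.049, edgeR adjusted p = 5.90e-08), with 1365 to 1546, 1199 to 1585 and 834 to 1153 normalized counts. The mRNA-decay genes ZC3H12A and ZFP36, whose products destabilize cytokine mRNAs, were the 2 of 9 genes of that list that passed, a share close to that of all genes, at -0.40 (SE 0.070) and -0.24 (SE 0.059). Of 12 other cytokines, EBI3 was higher (0.58), and CLCF1 (-0.31), IL12A (-0.46) and IL18, a cytokine of the IL1 family (-0.88, SE 0.088), were lower.

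Against this background the knockdowns were compared with siControl. With an adjusted p of at most 0.05, none of the 9 members passed in siYAP+TAZ, siYAP or siTAZ, where 18.4%, 0.933% and 2.03% of all genes did. None passed the further threshold on size either (a log2 fold change of 1 or more, up or down), which 3.46%, 0.0955% and 0.212% of all genes passed. At an unadjusted p below 0.05 the edgeR counts were 0 of 9 in siYAP+TAZ, 1 in siYAP (CSF2) and 1 in siTAZ (IL1B), against 30.3%, 11.9% and 16% of all genes. DESeq2 called none at the adjusted threshold. With the run as a block in the fit, edgeR called CSF2 in siYAP, where 6.1% of all genes were called. It called no other member in the 3 knockdowns. The members' median log2 fold change, in the order siYAP+TAZ, siYAP and siTAZ, was 0.066, -0.14 and 0.068, and that of all genes -0.0048, 0.0025 and 0.0.

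**Figure D3:**
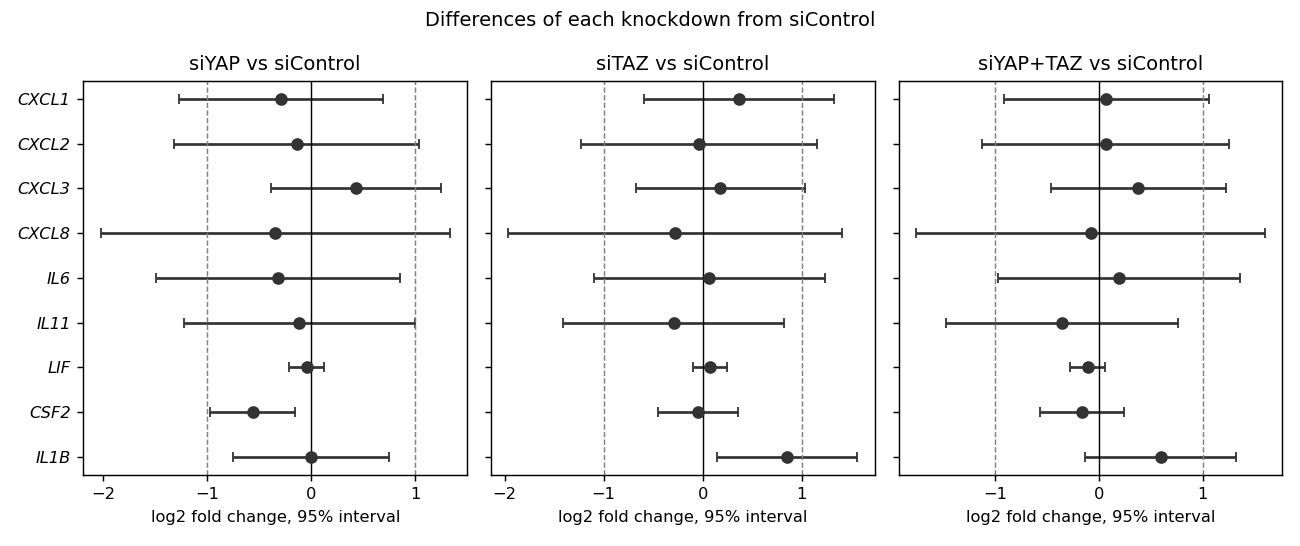
Log2 fold change of each member (points) with its 95% interval (bars) in siYAP, siTAZ and siYAP+TAZ against siControl, in the fit without the run as a block. Dashed lines mark log2 fold changes of 1 and -1; the intervals of LIF lie well inside them in all 3 panels, and that of CXCL8 crosses both.

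For the chemokines the intervals were wide in the fit that leaves out the run. CXCL8 had 1462, 1299 and 304 normalized counts in libraries 17, 22 and 27 (siControl), and 1345, 1258 and 322 in libraries 20, 25 and 30 (siYAP+TAZ). Its log2 fold change in siYAP+TAZ was -0.080 (SE 0.76, 95% interval -1.76 to 1.60, edgeR adjusted p = 0.960), and the interval reached past 1 on the log2 scale in either direction. With the run as a block in the fit it was -0.051 (SE 0.29, 95% interval -0.71 to 0.61, edgeR adjusted p = 0.923), and 1 lay outside the interval in both directions. Run by run, the log2 ratios of siYAP+TAZ to siControl were -0.12, -0.046 and 0.085. In siYAP the CXCL8 counts were 942, 1107 and 359 and in siTAZ 1481, 602 and 424, with log2 fold changes of -0.35 (SE 0.76, edgeR adjusted p = 0.931) and -0.28 (SE 0.76, edgeR adjusted p = 0.905).

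CXCL1, which activates the same receptor, had 72.3, 74.0 and 46.1 in siControl, 67.4, 60.4 and 27.7 in siYAP, 131, 71.5 and 41.1 in siTAZ and 102, 66.6 and 37.6 in siYAP+TAZ. The groups overlapped, and in siYAP each library lay below the siControl library of its run, by log2 ratios of -0.10, -0.29 and -0.73. CXCL2 had 142, 85.1 and 48.3 in siControl, 118, 91.4 and 40.1 in siYAP, 143, 63.3 and 59.1 in siTAZ and 129.6, 121 and 44.05 in siYAP+TAZ, and the groups overlapped. CXCL3, the third of these close relatives, had 42.5, 29.6 and 19.3 in siControl, 59.8, 34.2 and 29.8 in siYAP, 44.8, 38.7 and 19.3 in siTAZ and 49.9, 47.3 and 24.8 in siYAP+TAZ, again with overlap. The log2 fold changes in siYAP+TAZ, siYAP and siTAZ were 0.072, -0.29 and 0.37 for CXCL1, 0.066, -0.14 and -0.036 for CXCL2 and 0.38, 0.43 and 0.18 for CXCL3. They thus lay between -0.29 and 0.43 on the log2 scale in the 3 knockdowns, with SEs of 0.39 to 0.54 and edgeR adjusted p-values of at least 0.576. CXCL3 was higher than the siControl library of its run in all 3 runs of siYAP, by 0.49, 0.21 and 0.63, and in all 3 of siYAP+TAZ, by 0.23, 0.68 and 0.36.

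Among the gp130 cytokines, IL11, which is known as a target of TGF-beta in this line, was the member with the lowest fold change in siYAP+TAZ. It had 3651, 3496 and 1332 normalized counts in siControl, 2817, 2589 and 1242 in siYAP+TAZ, 3035, 2740.0 and 1131 in siTAZ and 3023, 2842 and 1959 in siYAP. Every siYAP+TAZ and siTAZ library thus lay below the siControl library of its run, by log2 ratios of -0.37, -0.43 and -0.10 and of -0.27, -0.35 and -0.24, although the groups overlapped because of the last run. The log2 fold changes were -0.36 in siYAP+TAZ (SE 0.50, 95% interval -1.47 to 0.76, edgeR adjusted p = 0.698), -0.29 in siTAZ (SE 0.50, edgeR adjusted p = 0.841) and -0.12 in siYAP (SE 0.50, edgeR adjusted p = 0.973). Without libraries 26 to 30, a choice made after the data were seen that leaves 2 libraries per group, IL11 was called as lower in siYAP+TAZ (-0.39, SE 0.080, edgeR adjusted p = 0.00159) and in siTAZ (-0.30, SE 0.080, edgeR adjusted p = 0.0367). In siYAP it was -0.27 in that fit (SE 0.079, edgeR adjusted p = 0.106). In the fits of siYAP+TAZ and siTAZ 19.9% and 4.68% of all genes were called. With all libraries kept and the run as a block, IL11 was not called in any knockdown. It was -0.32 in siYAP+TAZ (SE 0.15, 95% interval -0.65 to 0.014, edgeR adjusted p = 0.150). In siTAZ it was -0.29 (SE 0.15, edgeR adjusted p = 0.282) and in siYAP -0.0099 (SE 0.15, edgeR adjusted p = 0.987). IL11 was also lower in siControl than in Control in each run, by log2 ratios of -0.17, -0.066 and -0.46.

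IL6 had 118, 139 and 42.9 normalized counts in siControl, 146, 128 and 74.3 in siYAP+TAZ, 161, 102 and 47.6 in siTAZ and 90.4, 116 and 31.8 in siYAP. The groups overlapped, and the log2 fold changes were 0.19 in siYAP+TAZ (SE 0.53, edgeR adjusted p = 0.851), 0.068 in siTAZ (SE 0.53, edgeR adjusted p = 0.971) and -0.32 in siYAP (SE 0.53, edgeR adjusted p = 0.896). In siYAP every library lay below the siControl library of its run, by log2 ratios of -0.39, -0.26 and -0.43.

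LIF, which maintains stem cells and acts through LIFR and gp130, was the most precisely measured member. It had 2660.5, 2904 and 2944 normalized counts in siControl, 2678, 2471 and 2740.1 in siYAP+TAZ, 2871, 2596 and 2782 in siYAP and 2688, 3119.7 and 3144 in siTAZ. The groups overlapped. Its log2 fold change was -0.11 in siYAP+TAZ (SE 0.080, 95% interval -0.28 to 0.059, edgeR adjusted p = 0.398), -0.045 in siYAP (95% interval -0.21 to 0.12, edgeR adjusted p = 0.906) and 0.073 in siTAZ (95% interval -0.095 to 0.24, edgeR adjusted p = 0.728). A change of LIF by 1 on the log2 scale lay outside all 3 intervals.

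CSF2 had lower normalized counts in the 3 siYAP libraries than in the 3 siControl libraries, but did not pass the threshold over all genes. It had 566, 534 and 561 normalized counts in siControl (mean 553 ± 17.4, SD, n = 3) and 350.1, 365 and 411 in siYAP (mean 375 ± 31.6, SD, n = 3). These groups did not overlap, which held for 1 of the 9 members in siYAP, none in siTAZ and none in siYAP+TAZ, and for 19.5%, 20.9% and 36.4% of all genes. The log2 fold change was -0.56 (SE 0.19, 95% interval -0.97 to -0.16, edgeR adjusted p = 0.215), with log2 ratios of -0.69, -0.55 and -0.45 in the 3 runs. The exact permutation test of log2 CPM gave p = 0.1, two-sided, the smallest that 3 against 3 libraries allow. Fitted on the siYAP and siControl libraries alone, CSF2 was called (-0.55, SE 0.094, edgeR adjusted p = 0.0325), as were 0.742% of all genes. With the run as a block in the fit it was also called (-0.56, SE 0.11, edgeR adjusted p = 0.00184), as were 6.1% of all genes. Against Control (531, 384 and 625), which overlapped siYAP, the log2 fold change of siYAP was -0.45 (SE 0.19, edgeR adjusted p = 0.334). CSF2 had 555, 387 and 662 in siTAZ and 507, 395 and 576 in siYAP+TAZ, with log2 fold changes of -0.051 (SE 0.19, edgeR adjusted p = 0.935) and -0.17 (SE 0.19, edgeR adjusted p = 0.611).

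IL1B was counted in few reads. It had 17, 18 and 7 counts in siControl, 32, 23 and 12 in siTAZ, 23, 16 and 17 in siYAP+TAZ and 15, 17 and 14 in siYAP. In normalized counts siTAZ (27.6, 27.0 and 15.4) overlapped siControl (14.5, 16.6 and 7.51), and within each run siTAZ was higher, by log2 ratios of 0.93, 0.70 and 1.04. The log2 fold change was 0.85 in siTAZ (SE 0.34, 95% interval 0.14 to 1.56, edgeR adjusted p = 0.209), 0.60 in siYAP+TAZ (SE 0.35, edgeR adjusted p = 0.263) and -4.45e-05 in siYAP (SE 0.36, edgeR adjusted p = 1.0).

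Over the 27 exact permutation tests of the 9 members in the 3 knockdowns, p reached 0.1 only for CSF2 in siYAP. No member passed between siControl and Control, where edgeR called 0% of all genes at the adjusted threshold and 398 genes (2.11%) at an unadjusted p below 0.05, none of them a member. None passed between siYAP+TAZ and siYAP or between siYAP+TAZ and siTAZ, where 5.13% and 5.44% of all genes did, nor in the interaction of the 2 knockdowns, where 0.0106% did. At an unadjusted p below 0.05 edgeR gave 0, 1 (LIF) and 0 members in these 3, against 19.2%, 19.3% and 5.85% of all genes. DESeq2 called no member in any of the 4. With the run as a block, 2 members were called in siYAP+TAZ against siYAP, where 14.6% of all genes were: CSF2, higher by 0.38 (SE 0.11, edgeR adjusted p = 0.0196), and IL6, higher by 0.59 (SE 0.20, edgeR adjusted p = 0.0457). Both were higher in siYAP+TAZ than in siYAP in all 3 runs. LIF was lower in siYAP+TAZ than in siTAZ by a log2 difference of -0.18 (SE 0.080, edgeR adjusted p = 0.219). Because more WWTR1 RNA was left in siYAP+TAZ than in siTAZ, comparisons of the co-knockdown with single knockdowns cannot separate combination from strength of knockdown.

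Genes of the same pathways were then read from lists, and in siYAP+TAZ several differed from siControl, where 9.97% of all genes rose and 8.39% fell. Of 12 other cytokines, 4 rose and 1 fell, with a median log2 fold change of 0.27, against -0.0048 over all genes. CSF3 (G-CSF), which drives neutrophil production, had 12.8, 10.2 and 12.9 normalized counts in siControl and 47.6, 56.9 and 49.6 in siYAP+TAZ, higher by 2.10 on the log2 scale (SE 0.32, edgeR adjusted p = 0.000162). The Control libraries held 28.0, 11.7 and 22.4, above siControl in each run, and CSF3 had 10 to 54 counts per library. EBI3, a subunit of IL27 and IL35, rose by 1.18 (SE 0.35, edgeR adjusted p = 0.0234). IL12A, the p35 subunit of IL12, fell from 119.9, 128 and 91.2 to 46.4, 62.3 and 47.7 (-1.12, SE 0.24, edgeR adjusted p = 0.00293). Of 7 other chemokines, 1 passed: CX3CL1, a membrane-anchored chemokine, rose from 99.5, 77.7 and 67.6 to 149, 165 and 411 (1.57, SE 0.46, edgeR adjusted p = 0.0322).

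Of the receptors of the members, 9 of 15 were tested and the others, among them CXCR1 and CXCR2, were not analysed here. In siYAP+TAZ 4 rose and none fell (median log2 fold change 0.46). IL1R1, the signalling receptor of IL1B, rose by 0.86 (SE 0.15, edgeR adjusted p = 0.000625), and its partner chain IL1RAP by 0.46 (SE 0.14, edgeR adjusted p = 0.0248). CCR1 and CCR3, receptors of CCL5, rose as well but were counted in at most 29 and 9 reads per library. CCR1 had 6.80, 3.70 and 12.9 normalized counts in siControl and 25.0, 19.3 and 26.6 in siYAP+TAZ. CCR3 had 0, 1 and 0 counts in siControl, so no fold is given.

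Of the 18 genes of NF-kappaB signalling, 2 rose and 5 fell in siYAP+TAZ (median log2 fold change -0.049). BCL3, an atypical I-kappaB protein, rose from 384, 301 and 278 normalized counts to 739.6, 722 and 535 (1.05, SE 0.18, edgeR adjusted p = 0.000877). TNIP1, a partner of A20, rose by 0.38. The 5 that fell were TNFAIP3, which encodes A20 (-0.47), MAP3K14 (-0.46), NFKB1 (-0.43), NFKBIB (-0.25) and CHUK (-0.24). In siYAP 1 of the 18 passed, MAP3K14 (-0.47), and in siTAZ 1, TNIP1 (0.39), where 0.933% and 2.03% of all genes did.

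Of 9 genes of gp130, JAK and STAT3 signalling, 3 rose and none fell in siYAP+TAZ. SOCS1, an inhibitor of JAK kinases, rose from 188, 170.1 and 240.3 to 398, 319 and 633 (1.18, SE 0.27, edgeR adjusted p = 0.00823). Of 9 genes of AU-rich mRNA decay, 1 passed, HNRNPD (AUF1), which fell by 0.29 on the log2 scale (SE 0.077, edgeR adjusted p = 0.0115). Of 6 genes of IL1B processing, the DNA sensor AIM2 rose (1.24, SE 0.29, edgeR adjusted p = 0.00557) and the inflammasome sensor NLRP3 fell (-0.74, SE 0.19, edgeR adjusted p = 0.0113).

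Genes that respond to double-stranded RNA or interferon were listed because siRNA itself can act on them. In siYAP+TAZ 4 of 9 rose and none fell, with a median log2 fold change of 0.71. OAS2 rose from 230.5, 201 and 235 to 476, 434 and 573 (1.16, SE 0.14, edgeR adjusted p = 2.57e-05), and MX1 from 159.9, 179 and 189 to 307, 294 and 472 (1.03, SE 0.24, edgeR adjusted p = 0.00774). DDX58 (RIG-I) and ISG15 rose by 0.71 and 0.48. In siYAP and in siTAZ 1 of the 9 passed, DDX58, which was higher by 0.42 and 0.50, where 0.933% and 2.03% of all genes passed. The part of these genes, or of the larger amount of siRNA, in any difference above was not tested.

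Of 10 markers of leukocytes 3 were tested and the others were not analysed here. Of the 3, the summed normalized count ranged from 46.1 to 218 per library. CSF1R, the receptor of the macrophage growth factor, had 41.7, 49.9 and 27.9 in siControl and 172, 167 and 176 in siYAP+TAZ (2.09, SE 0.22, edgeR adjusted p = 3.93e-06), and CD14 had 13.6, 20.3 and 16.1 and then 45.2, 34.4 and 35.8. In the test of the runs none of the 3 passed.

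**Figure D4:**
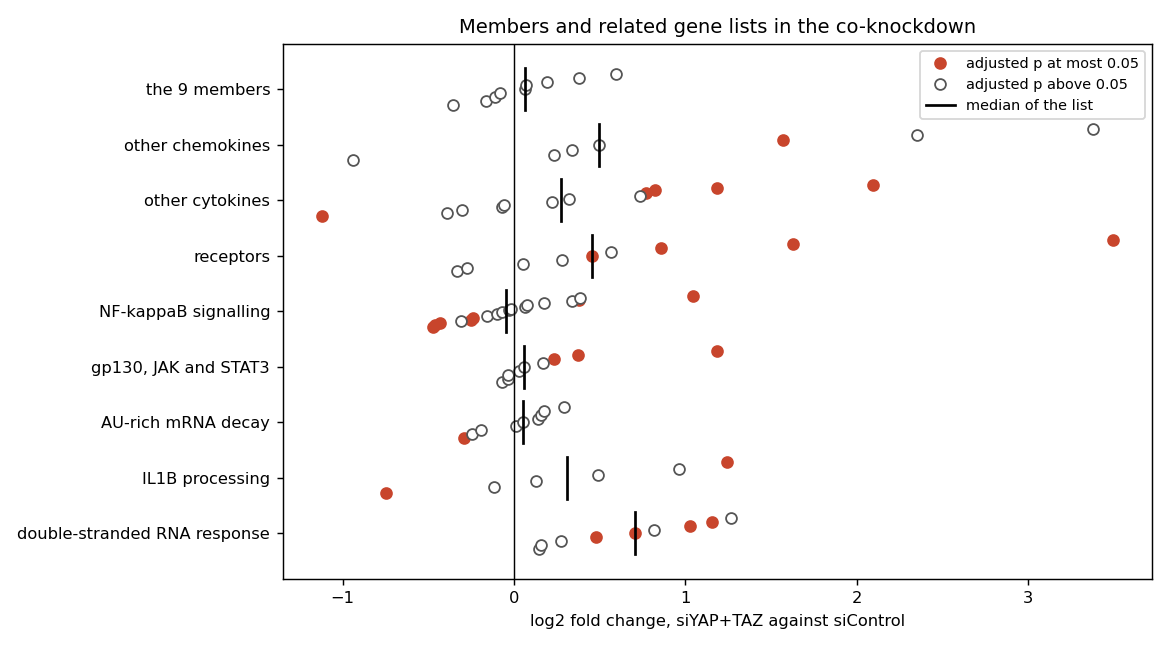
Log2 fold change in siYAP+TAZ against siControl (horizontal axis) of the 9 members and of the genes of 8 related lists (vertical axis), with filled points at an edgeR adjusted p of at most 0.05 and a bar at each median. No member is filled, while 5 of 12 other cytokines and 7 of 18 genes of NF-kappaB signalling are.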

How the data were processed

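Polyadenylated RNA of MDA-MB-231 cells was analysed in 15 libraries, 3 in each of 5 groups, assigned by sample titles. Reads were single, trimmed with cutadapt, aligned with STAR 2.4.2a to GRCh38 (GENCODE) and counted in the UTAP pipeline, as the methods and the submitters' processing notes state. The authors deposited raw counts per gene, which were the input of every test here. The authors also deposited rlog values on a log2 scale and a normalized signal, the count over its DESeq2 size factor, neither used in a test. Their own comparison columns (fold changes and p-values) were not used. Every row reached at least 6 reads in 1 library.

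The quasi-likelihood test of edgeR 4.0.16 (R 4.3.3) was run on TMM-normalized counts (robust, all 15 libraries, 1 coefficient per group), with Benjamini-Hochberg adjustment over 18858 genes. Total counts were 18696737 to 30107312. The study describes 3 independent sets of experiments per condition but ties no library number to a set, so the fit has no block and p-values measure the spread between libraries. Deviations from the group means correlated between same-run libraries at r of 0.186 or more in every pair of the comparisons that left out the siTAZ group. The fit with the run as a block is therefore given where it changed a call, and also for CXCL8 and IL11. Pairs with siTAZ library 24 lay between -0.050 and 0.029. Members, lists and motifs were chosen with earlier results of these data known. All 10 members were named, by rule in full where normalized counts averaged 20 or more, otherwise by counts per library. IL1B (mean 16.1) was given with its test outside this rule. From each list, genes past both thresholds in siYAP+TAZ were named, otherwise at most 4 with the smallest adjusted p. Named outside this rule, after their values were seen, were IL1R1, IL1RAP, TNIP1, TNFAIP3, MAP3K14, NFKB1, NFKBIB, CHUK, NLRP3, DDX58 and ISG15, which passed the adjusted threshold alone, and the list genes given for the runs. So was PTPRC, which was counted in few reads. Likeness used log2 CPM (prior count 2). Exact permutation tests used log2(CPM + 1). Alternatives were DESeq2 1.42.0, other size factors, library size alone, stricter filters, the compared groups alone, Control as reference, each library left out, and the run as a block. Added after the data were seen were the test of the runs and the fit without libraries 26 to 30.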

Additional observations from a re-analysis of the deposited data

Results flagged for a closer look

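LIF was picked out because its differences in siTAZ and on adding siTAZ to siYAP had opposite signs in every run, though neither passed the test (edgeR adjusted p = 0.728 and 0.734). It was higher in siTAZ than in siControl by log2 ratios of 0.015, 0.10 and 0.095 in the 3 runs, and lower in siYAP+TAZ than in siYAP by -0.10, -0.071 and -0.022, so that the mean effect differed by -0.14. The edgeR test of the interaction gave -0.14 (SE 0.11, edgeR adjusted p = 0.935). More WWTR1 RNA was left in siYAP+TAZ than in siTAZ, which these differences do not take into account.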

How the results depend on the processing

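No member passed both thresholds under any alternative run in the 7 comparisons of groups, and the counts at an adjusted p of at most 0.05, 0 in each of the 7, changed in 5 instances. In siYAP the count was 1 (CSF2) with only the groups compared and 1 (CSF2, log2 fold change -0.56, edgeR adjusted p = 0.00184) with the run as replicate block. In siYAP+TAZ against siYAP the block gave 2 (IL6 and CSF2). Without libraries 26 to 30, it was 1 (IL11) in siYAP+TAZ and 1 (IL11) in siTAZ. The block changed no other call of a member. In the test of the runs, 7 members were called under all 19 alternatives run. The exact permutation test reached 0.1 for 1 of 27 values with a pseudocount of 1 and of 0.25.

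Some fold changes changed sign under some alternatives, most near 0 but among them that of CXCL1 in siTAZ (0.37). The cause was not tested. Against Control, siYAP+TAZ gave -0.12 for CXCL1 and 0.014 for CXCL8, siYAP gave 0.069 for IL6 and 0.19 for IL1B, and siTAZ gave -0.014 for LIF and 0.060 for CSF2. With library size alone, siYAP gave 0.0054 for LIF and 0.045 for IL1B. IL1B in siYAP, at -4.45e-05 in the report, was also 0.0093 with DESeq2 size factors, 0.015 with at least 10 reads in 3 libraries, 0.016 with the edgeR expression filter, 0.012 with only the groups compared, 0.0066 with the replicate block and 0.013 with DESeq2. Leaving out 1 library at a time, siYAP+TAZ ranged from -0.32 to 0.39 for CXCL1, from -0.23 to 0.54 for CXCL2, from -0.51 to 0.35 for CXCL8 and from -0.16 to 0.49 for IL6. In siYAP the ranges were -0.47 to 0.34 for CXCL2, -0.77 to 0.015 for CXCL8, -0.67 to 0.031 for IL6, -0.45 to 0.12 for IL11, -0.077 to 0.011 for LIF and -0.25 to 0.21 for IL1B. In siTAZ they were -0.19 to 0.67 for CXCL1, -0.60 to 0.43 for CXCL2, -0.080 to 0.50 for CXCL3, -0.997 to 0.066 for CXCL8, -0.63 to 0.029 for IL11, -0.42 to 0.39 for IL6 and -0.23 to 0.13 for CSF2. Other ranges were wide without a change of sign. In siYAP+TAZ they were -0.69 to -0.059 for IL11, 0.15 to 0.71 for CXCL3 and 0.32 to 0.81 for IL1B. That of CSF2 was -0.29 to -0.025. In siYAP the range was 0.056 to 0.77 for CXCL3 and -0.52 to -0.014 for CXCL1. No member's difference between libraries 26 to 30 and the others changed sign.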
